A study of Mus musculus with 6 samples.

Results

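Enterospheres are spheres of neural progenitors cultured in suspension from the gut wall, and 48 genes for neuronal and synaptic adhesion molecules were followed in them after exposure to thyroid hormone. The members were taken by gene symbol: contactins, contactin-associated proteins, neurexins, neuroligins, the leucine-rich repeat families Lrrtm, Lrrn, Lrfn, Slitrk and Flrt, the Cadm family, Thy1, and the IgLON genes Lsamp, Negr1, Ntm and Opcml. They were 48 of the 19938 genes measured, each represented by the probe set of highest mean that carried its single name. Some of these genes, such as Thy1, are also active in cells other than neurons, so the name describes a gene list and not a cell type.

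Every sample came from 3 newborn C57BL/6 mice aged up to 12 hours, and its spheres had been grown for 4 and then 5 days with epidermal and fibroblast growth factor before they were moved to differentiation medium without them. The T3 group held 3 samples given triiodothyronine (T3) for 1 day at 100 nM (the labels print the unit as nm). T3 is the form of thyroid hormone that binds the nuclear receptors. The control group held 3 samples kept for the same time without T3. RNA of whole spheres was hybridised to 1 whole-transcript mouse array per sample, and the deposited values are on a log2 scale.

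Neurons meet their partners through pairs of surface proteins. Neurexins on the presynaptic side bind neuroligins and Lrrtm proteins on the postsynaptic side, and Slitrk, Lrfn and Flrt proteins are further leucine-rich repeat organisers of synapses. Contactins are anchored to the membrane by lipid and pair with contactin-associated proteins, among them the partners that set up the regions beside the node of Ranvier. Cadm, IgLON and Thy1 proteins belong to the immunoglobulin superfamily and act in adhesion of neurites, glia and, for some of them, other cells.

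The sequence before the transcription start of the members that changed is shown first, since these are the stretches next to which the hormone's receptors could be looked for. Thyroid hormone receptors are known to bind repeats of AGGTCA. RefSeq's promoter table (build GRCm38.p6, 250 bases before to 50 after each start) held 34 of the 48 members in 46 windows, and Thy1 has no entry there. The letters AGGTCA, on either strand, were in 3 of the 46 windows (6.52%), against 16.3% of the 32851 windows of all genes. The direct repeat of AGGTCA spaced by 4 bases was in none of the members' windows and in 5 of all windows. A match is a description of the letters and not a site. The 250 bases upstream of the 5′-most listed start are given for the changed members Lrrtm1, Cntnap2 and Ntm and, as the IgLON gene with a match, for Lsamp, with AGGTCA in capitals. The stretches are chr6:77242227-77242476 (plus strand) for Lrrtm1, chr6:45059811-45060060 (plus strand) for Cntnap2, chr9:29413453-29413702 (minus strand) for Ntm and chr16:39984114-39984363 (plus strand) for Lsamp.
Lrrtm1: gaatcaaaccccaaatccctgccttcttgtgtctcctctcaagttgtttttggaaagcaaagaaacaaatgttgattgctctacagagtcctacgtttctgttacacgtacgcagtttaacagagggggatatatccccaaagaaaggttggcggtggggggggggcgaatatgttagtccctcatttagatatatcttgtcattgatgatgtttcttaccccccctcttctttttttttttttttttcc
Cntnap2: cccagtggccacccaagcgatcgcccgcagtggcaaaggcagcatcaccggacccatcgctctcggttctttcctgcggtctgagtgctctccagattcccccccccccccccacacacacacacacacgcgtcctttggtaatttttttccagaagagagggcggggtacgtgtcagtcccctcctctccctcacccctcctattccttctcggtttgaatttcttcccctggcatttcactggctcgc
Ntm: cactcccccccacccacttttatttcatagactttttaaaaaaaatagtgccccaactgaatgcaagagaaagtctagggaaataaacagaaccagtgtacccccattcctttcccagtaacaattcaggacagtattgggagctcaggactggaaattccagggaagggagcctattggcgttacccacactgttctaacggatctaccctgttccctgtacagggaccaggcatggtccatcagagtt
Lsamp: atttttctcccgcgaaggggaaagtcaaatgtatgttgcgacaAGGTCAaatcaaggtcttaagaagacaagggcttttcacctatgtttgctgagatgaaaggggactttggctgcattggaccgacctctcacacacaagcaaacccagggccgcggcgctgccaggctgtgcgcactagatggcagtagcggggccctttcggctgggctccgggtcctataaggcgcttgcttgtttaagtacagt
Of these 4 stretches only that of Lsamp holds the letters, beginning 207 bases before the start. The other 2 matches among the members, in Lrrn4 and Lrfn4, began 8 bases before and 6 bases after the first transcribed base.

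T3 raised 3 of the 48 adhesion genes and lowered 1. Thy1, Lrrtm1 and Cntnap2 were higher and Ntm was lower at an adjusted p under 0.05 (limma, adjusted over all 19938 genes), and 44 members were not called. That is 8.33% of the members, against 3.10% of all genes tested (2.28% higher and 0.823% lower). Most other members had small positive changes: 37 of 48 had a log2 change above 0 (77.1%, against 53.3% of all genes), and the median log2 change was 0.16, against 0.01 over all genes. An unadjusted p under 0.05 was reached by 23 members, 19 with a positive and 4 with a negative change (47.9%, against 13.7% of all genes). The 3 values of one group lay wholly apart from those of the other for 26 members (54.2%, against 19.5% of all genes). Genes measured on the same 6 arrays are not independent of each other, and these shares describe the list.

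**Figure D1:**
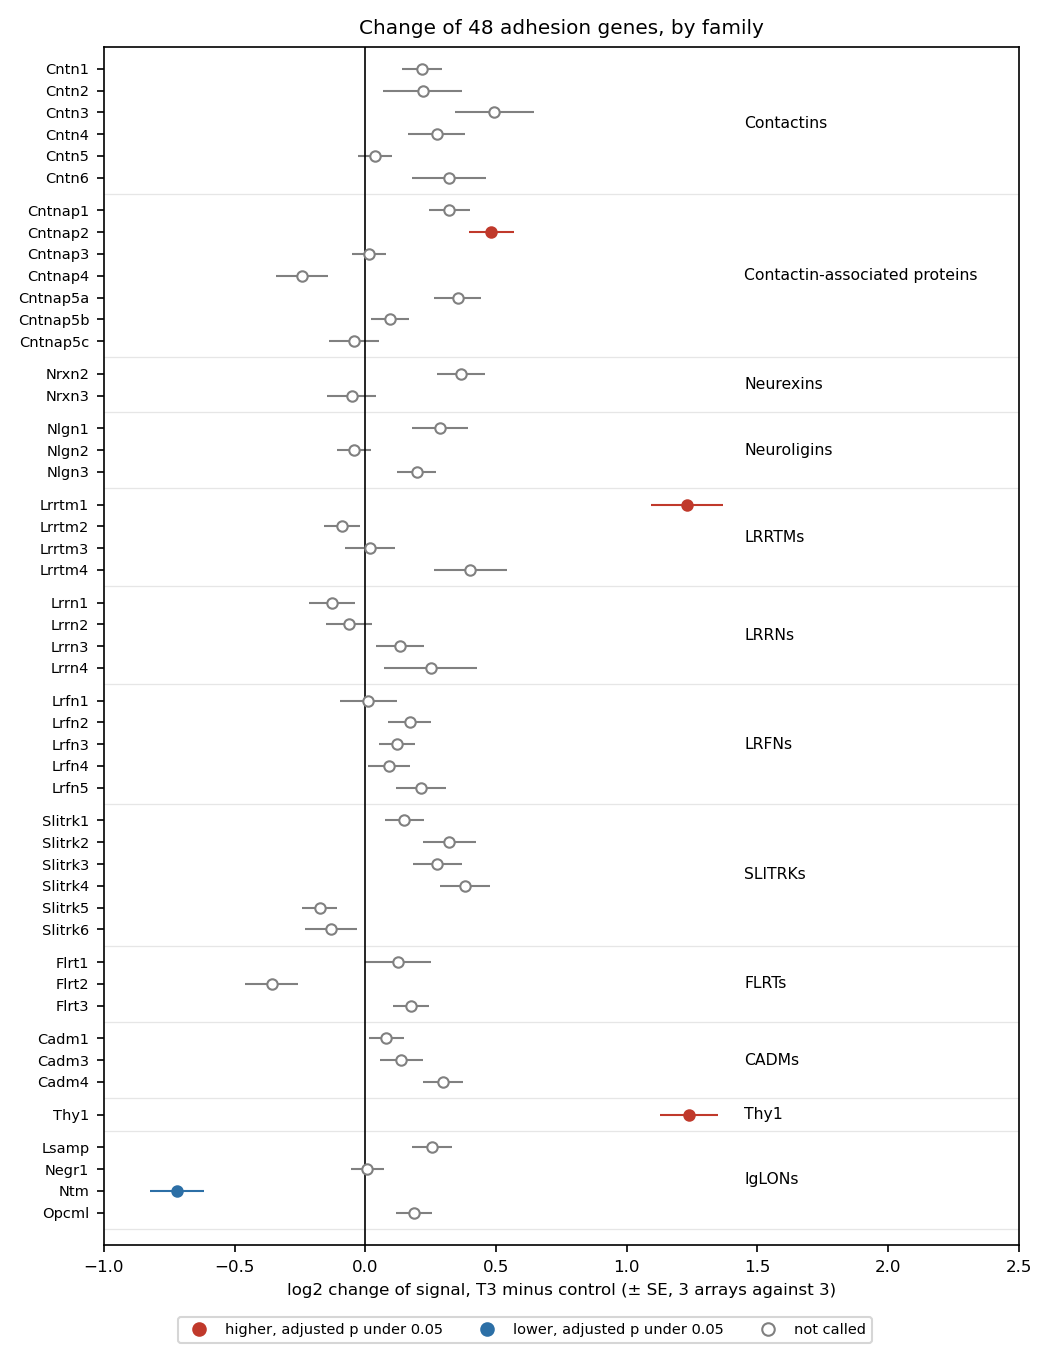
The log2 change of signal, T3 minus control, is plotted for each of the 48 adhesion genes by family, as a point with a bar of ± SE from limma (3 arrays against 3). Thy1, Lrrtm1 and Cntnap2 in red and Ntm in blue passed the test, and open points did not; most open points lie to the right of 0.

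Thy1, a small immunoglobulin-domain protein held on the outer membrane of neurons, fibroblasts and mouse T cells, had the largest change of the members, with that of Lrrtm1 within its SE (probe set 10584628). Its log2 values were 8.73, 9.04 and 8.68 on the control arrays and 10.12, 9.93 and 10.12 on the T3 arrays. The lowest T3 value stood 0.88 above the highest control value, more than the range within either group (0.37 and 0.20). The change was 1.24 ± 0.11 (SE) on the log2 scale, a 2.36-fold rise in signal, with adjusted p = 0.00131 (limma). It passed the test when any 1 array was left out, with adjusted p of at most 0.0113.

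Thy1 is carried by several cell types, so the levels of their markers are given beside it. Neuron markers (7 of 8 listed genes measured) had a mean log2 value of 10.33 to 10.38 on T3 arrays and 10.06 to 10.26 on control arrays, without overlap. Prph and Snap25 were called higher, with changes of 0.94 and 0.33, and 5 were not called: Stmn2 had 0.25, and Tubb3, Elavl4, Uchl1 and Elavl3 had 0.03, 0.02, -0.02 and -0.13. The median change of this list was 0.03. Fibroblast and mesenchyme markers (7 genes) averaged 10.76 to 10.82 with T3 and 10.83 to 10.94 without, and none was called. These means also did not overlap, in the other direction and by a narrow margin. Pdgfrb, Col1a2 and Col1a1 had changes of -0.26, -0.24 and -0.13, while Col3a1, Lum, Pdgfra and Dcn had -0.04, -0.03, 0.03 and 0.10. The median change of these 7 genes was -0.04. All 5 T cell markers lay below the median of the control arrays, with means of 4.76 to 4.89 with T3 and 4.67 to 5.01 without. Whether T cell markers were above background is not known, as the values carry no detection calls. Enteric glia and Schwann cell markers (5 of 7 genes measured) overlapped between the groups, at 10.24 to 10.38 with T3 and 10.28 to 10.45 without, as did neural progenitor markers (4 of 6 measured), at 11.21 to 11.39 and 11.28 to 11.32. Means of smooth muscle markers (6 genes, 1 called higher and 2 lower) and endothelial markers (5 genes, 2 called lower) overlapped as well, at 7.60 to 7.67 and 6.20 to 6.44 with T3 and 7.54 to 7.67 and 6.32 to 6.46 without. Under these means genes changed in both directions. Myh11 was called higher (0.60), and Tagln (-0.72) and Acta2 (-0.38) lower, while Cnn1, Actg2 and Des had 0.46, 0.28 and 0.03. Egfl7 (-0.70) and Kdr (-0.41) were called lower, while Cdh5, Pecam1 and Tek had 0.42, 0.27 and 0.13. The progenitor list shares Sox10 (-0.05) with the glia list, and Ret, Ednrb and Nes had 0.26, -0.22 and -0.08. The part of these shifts in the changes of the adhesion genes was not tested, and in RNA of whole spheres more cells of a type and more RNA per cell cannot be told apart.

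Lrrtm1, a postsynaptic leucine-rich repeat protein that binds neurexins, rose by nearly the same amount (probe set 10539169). It read 5.92, 6.28 and 6.51 on the control arrays and 7.35, 7.51 and 7.54 on the T3 arrays. All T3 values lay above all control values, by at least 0.84, while the controls spread over 0.59. The log2 change was 1.23 ± 0.14 (SE), 2.35-fold in signal, with adjusted p = 0.00367 (limma), and the call held without any 1 array (adjusted p at most 0.0196). Its mean over the 6 arrays was at percentile 48.5 of all genes, and it was left out of the test that dropped the dimmest 50% of genes.

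The other Lrrtm genes were not called. Lrrtm4 had a log2 change of 0.40 ± 0.14 (SE) with adjusted p = 0.216, and its control replicate 2, at 7.36, lay above T3 replicate 1, at 7.31. Lrrtm2 and Lrrtm3, with control means of 10.89 and 10.18, had changes of -0.09 ± 0.07 (SE) and 0.02 ± 0.10 (SE). The difference between the change of Lrrtm1 and those of its relatives was not tested. In RefSeq's gene table Lrrtm1, Lrrtm2 and Lrrtm3 each lie inside an alpha-catenin gene. These enclosing genes had log2 changes of 0.11 for Ctnna2, around Lrrtm1, below 0.01 for Ctnna1 and -0.22 for Ctnna3, with adjusted p of 0.683, 1.00 and 0.177 (limma). Lrfn4, whose change was 0.09, likewise lies inside Pcx, which was called higher at 0.40 with adjusted p = 0.0481 (limma). The genes enclosing Flrt1 and Flrt3 (Macrod1 and Macrod2) had changes of -0.05 and 0.03 and were not called.

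**Figure D2:**
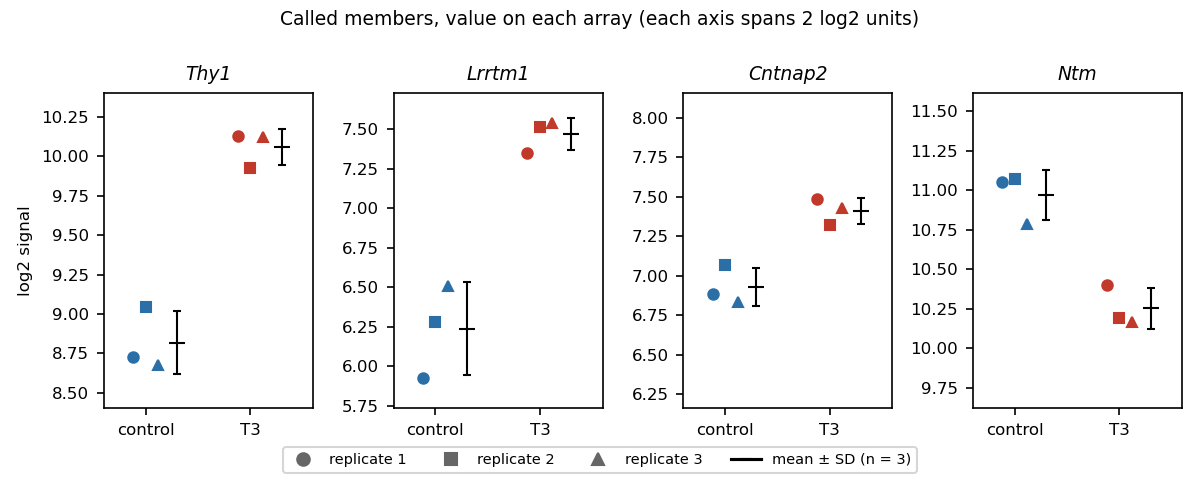
Log2 signal on each array for the 4 called members, with controls in blue, T3 in red, a symbol for each replicate number and the mean ± SD (n = 3) in black; every vertical axis spans 2 log2 units. The T3 values of Thy1, Lrrtm1 and Cntnap2 all lie above the control values, and those of Ntm all lie below.

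Cntnap2, a neurexin-like protein that helps gather potassium channels along the axon, rose less (probe set 10537851). Its control values were 6.88, 7.07 and 6.84 and its T3 values 7.49, 7.32 and 7.43. The groups were 0.25 apart, about as far as the controls were spread (0.23). The log2 change was 0.48 ± 0.09 (SE), 1.40-fold, with adjusted p = 0.0228 (limma). This call rested on the full set of arrays: without any 1 array except control replicate 2 it was lost, with adjusted p up to 0.120.

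No other contactin-associated protein gene was called. Cntnap1, of the junction between axon and myelinating glia, read 7.15, 7.36 and 7.19 in controls and 7.59, 7.56 and 7.52 with T3. Its change of 0.32 ± 0.08 (SE) came with adjusted p = 0.0734. Cntnap5a had 0.35 ± 0.09 (SE) and adjusted p = 0.0848. The groups did not overlap for either gene. The change of Cntnap4 was -0.24 ± 0.10 (SE, adjusted p = 0.316), with T3 replicate 2 at 5.51 inside the control values of 5.46 to 5.70. Cntnap5b, Cntnap3 and Cntnap5c had changes of 0.10, 0.02 and -0.04, and all 3 were dim, with control means of 4.35 to 5.83. The other 5 probe sets of Cntnap3 had changes of 0.01 to 0.25 and none was called.

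All 6 contactins had positive changes, from 0.04 for Cntn5 to 0.49 for Cntn3, and none was called. Cntn3 read 6.87, 7.24 and 6.56 in controls and 7.35, 7.35 and 7.44 with T3 (0.49 ± 0.15 SE, adjusted p = 0.154), so the controls were spread over more than the mean change. Cntn1, the partner of Cntnap1 at the node's border, had 0.22 ± 0.08 (SE) with adjusted p = 0.230. Cntn2, which pairs with Cntnap2 beside the node, had 0.22 ± 0.15 (SE) with overlapping groups and adjusted p = 0.640. Cntn4 had 0.27 ± 0.11 (SE, adjusted p = 0.302) and Cntn6 had 0.32 ± 0.14 (SE, adjusted p = 0.364). Cntn2, Cntn4, Cntn5 and Cntn6 lay below the median of the arrays, where a change in signal tends to understate the change in RNA.

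Of the central trans-synaptic pair, neurexins and neuroligins, no gene was called. Nrxn2, a presynaptic receptor, read 9.25, 9.48 and 9.21 in controls and 9.78, 9.58 and 9.67 with T3. The groups did not overlap, and the change was 0.37 ± 0.09 (SE) with adjusted p = 0.0877. Nrxn3 had -0.05 ± 0.09 (SE) with overlapping groups. Among their postsynaptic ligands, Nlgn1, of excitatory synapses, had 0.29 ± 0.11 (SE, adjusted p = 0.264), and Nlgn3 had 0.20 ± 0.07 (SE, adjusted p = 0.276). Nlgn2, of inhibitory synapses, had -0.04 ± 0.07 (SE). It read 10.27, 10.27 and 10.24 in controls and 10.16, 10.24 and 10.25 with T3, so the groups overlapped.

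The Slitrk genes encode proteins that bind receptor tyrosine phosphatases across the synapse, and none was called. Slitrk4 (0.38 ± 0.10 SE, adjusted p = 0.0849), Slitrk2 (0.32 ± 0.10 SE, adjusted p = 0.167) and Slitrk3 (0.28 ± 0.09 SE, adjusted p = 0.208) had positive changes with groups that did not overlap. Slitrk1 had 0.15. Slitrk5 had a negative change of -0.17 ± 0.07 (SE, adjusted p = 0.292), from 8.81, 8.69 and 8.77 in controls to 8.62, 8.59 and 8.55 with T3, and Slitrk6 had -0.13 ± 0.10 (SE, adjusted p = 0.696). The further probe set of Slitrk2, which was dim, had 0.22 ± 0.09 (SE), in the same direction.

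Flrt2, a ligand of latrophilins and Unc5 receptors, had the most negative change after Ntm. It read 8.75, 9.02 and 9.09 in controls and 8.67, 8.61 and 8.51 with T3, and the change was -0.36 ± 0.10 (SE) with adjusted p = 0.121. Flrt3 had 0.18 ± 0.07 (SE, adjusted p = 0.309) and Flrt1 had 0.13 ± 0.13 (SE). The 5 Lrfn genes, which encode postsynaptic organisers, had changes of 0.01 for Lrfn1 to 0.21 for Lrfn5, none with an unadjusted p under 0.05. Those of the 4 Lrrn genes ran from -0.13 for Lrrn1 to 0.25 for Lrrn4, again none with an unadjusted p under 0.05. The value of Lrrn4 came from T3 replicate 1 at 6.28, against 5.45 and 5.77 on the other T3 arrays and 5.53 to 5.61 in controls.

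The Cadm genes encode adhesion proteins of synapses and of axon and Schwann cell contact, and none was called. Cadm4, found on Schwann cells, read 10.42, 10.43 and 10.52 in controls and 10.86, 10.68 and 10.73 with T3, a change of 0.30 ± 0.08 (SE) with adjusted p = 0.0906. Cadm1 had 0.08 ± 0.07 (SE) and Cadm3 had 0.14 ± 0.08 (SE). Neither had an unadjusted p under 0.05.

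Ntm, which encodes neurotrimin, was the only member called lower (probe set 10591978). Neurotrimin is a lipid-anchored IgLON protein of growing neurites. Its values were 11.05, 11.07 and 10.79 in controls and 10.40, 10.19 and 10.17 with T3. The highest T3 value was 0.39 below the lowest control value, with ranges of 0.24 and 0.28 within the groups. The log2 change was -0.72 ± 0.10 (SE), 1.65-fold lower in signal, with adjusted p = 0.00904 (limma). The call was lost without control replicate 1 (adjusted p = 0.0563) and held without any other single array.

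The other 3 IgLON members were not called. Lsamp read 7.71, 7.93 and 7.83 in controls and 8.08, 8.11 and 8.03 with T3 (0.26 ± 0.08 SE, adjusted p = 0.153). Opcml read 10.04, 10.16 and 10.03 in controls and 10.28, 10.24 and 10.26 with T3 (0.19 ± 0.07 SE, adjusted p = 0.264). For both genes every T3 value lay above every control value, and neither was called. Negr1, at 10.75 in controls, had a change of 0.01 ± 0.06 (SE). Iglon5, the remaining gene of the family and no member by the rule, was called higher: it went from 7.68, 7.88 and 8.08 to 8.70, 8.61 and 8.59, a log2 change of 0.76 ± 0.10 (SE) with adjusted p = 0.00798 (limma). Within the family 1 gene was thus called lower and 1 higher, and the differences between their changes were not tested.

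Among the members with a small p, the control arrays did not lie equally near the T3 values. Of the 23 members with an unadjusted p under 0.05, control replicate 2 was the nearest control in 18, control replicate 3 in 4 and control replicate 1 in 1. Over all 48 members these counts were 24, 19 and 5. Over all genes, the SD of the difference from T3 replicates 1, 2 and 3 was 0.245, 0.224 and 0.230 for control replicate 1. It was 0.263, 0.225 and 0.223 for control replicate 2, and 0.267, 0.235 and 0.239 for control replicate 3. Over all 2737 genes with an unadjusted p under 0.05, control replicate 2 was the nearest in 46.4%. Of the controls this array had the highest means of neuron markers (10.26, against 10.16 and 10.06) and neural progenitor markers (11.32, against 11.30 and 11.28). Its mean of enteric glia and Schwann cell markers was also the highest (10.45, against 10.28 and 10.38). It had the lowest means of T cell markers (4.67, against 4.94 and 5.01) and endothelial markers (6.32, against 6.44 and 6.46). Fibroblast and mesenchyme markers were lowest on it too (10.83, against 10.84 and 10.94), and smooth muscle markers lay between the other controls. Without control replicate 2, 9 members were called higher: Thy1, Lrrtm1 and Cntnap2, and also Cntnap1, Cntnap5a, Nrxn2, Lrrtm4, Cntn3 and Cntn6, while 3.21% of all genes were called in that fit. Without any other single array, 2 were called higher, Thy1 and Lrrtm1, and between 0.958% and 2.03% of all genes were called. The part of this array's marker levels in the counts was not tested.

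**Figure D3:**
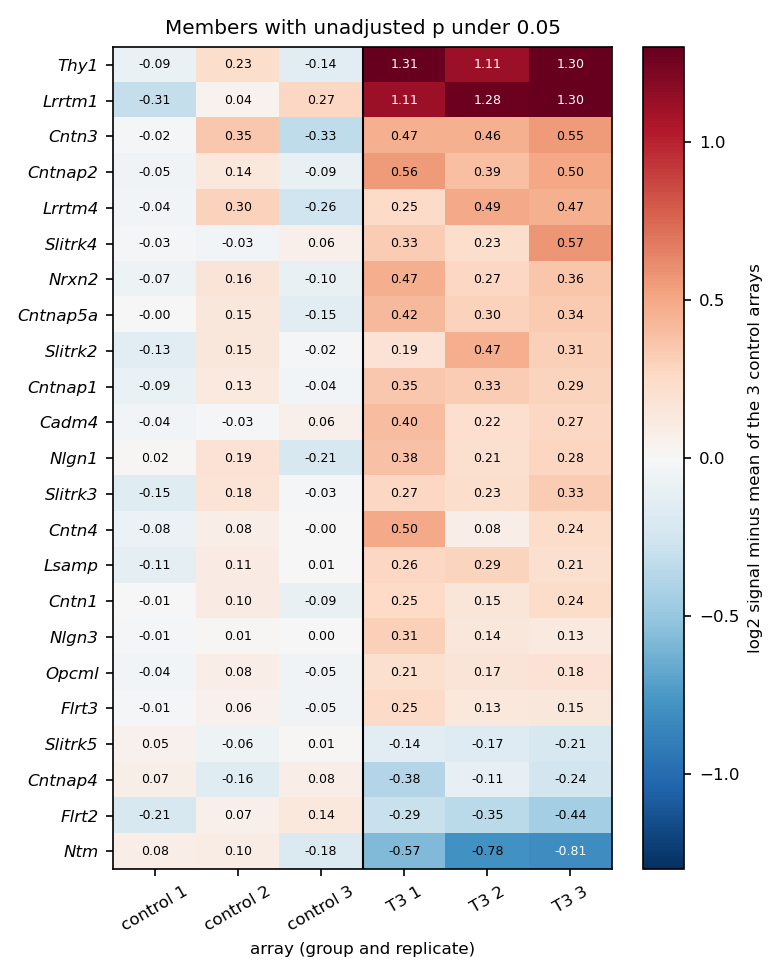
Each cell gives the log2 signal of 1 of the 23 members with an unadjusted p under 0.05 on 1 array, minus the mean of the 3 control arrays of that gene, with red above and blue below it. Control replicate 2 is the highest control for 16 of the 19 genes with a positive change, and Thy1 and Lrrtm1 stand out at 1.11 to 1.31 on the T3 arrays.

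Among all genes, those of higher mean signal were called more often, so the counts are also given by signal. Of the 30 members at or above the median gene in mean signal, 3 were called, 10.0%, against 4.46% of all genes in that range. Of the 18 members below it, 1 was called, 5.56%, against 1.74%. In both ranges most members had a positive change, 22 of 30 and 15 of 18.

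The wider list held adhesion partners, receptors, secreted organisers and postsynaptic scaffolds. Of 77 measured genes of 80 on this list, 9 were called higher and 4 lower, and 64 were not called. That is 16.9%, against 3.10% of all genes and 4.46% of all genes at or above the median gene in mean signal. The median percentile of mean signal on the list was 65.3. Its genes were chosen with earlier results of these data known, so the share describes the list and tests nothing. The median log2 change of the list was 0.06.

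Of the 9 partner genes that rose, Tnr, Lgi3, Lgi4 and Nptx1 encode secreted proteins. Tnr, the matrix protein tenascin-R, rose from 7.04, 7.47 and 6.92 to 8.55, 8.12 and 8.44, a log2 change of 1.23 ± 0.16 (SE). Ntng1, a lipid-anchored netrin relative that acts as a presynaptic ligand, rose from 6.77, 7.40 and 6.99 to 8.50, 8.08 and 8.08, a log2 change of 1.17 ± 0.17 (SE). In both genes the controls were spread over more than 0.5 log2 units, with control replicate 2 the highest, and the groups stayed apart by 0.64 and 0.68. Lgi3 and Lgi4, secreted leucine-rich ligands of neurons and glia, rose by 0.82 ± 0.10 (SE) and 0.60 ± 0.07 (SE). The calsyntenins Clstn2 and Clstn3, cadherin-like synaptic organisers, rose by 0.79 ± 0.08 (SE) and 0.44 ± 0.08 (SE). Nptx1, a secreted pentraxin that gathers glutamate receptors, rose by 0.49 ± 0.08 (SE), and the cell adhesion molecule gene Ncam2 by 0.56 ± 0.11 (SE). Adjusted p of these genes (limma) lay between 0.00258 for Clstn2 and 0.0372 for Ncam2. The calls of Clstn3 and Ncam2 held in only 1 of the 6 fits without 1 array, the fit without control replicate 2, and that of Nptx1 was lost without control replicate 1.

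The partner genes that fell were Lrrc4, Sdk1, Sdk2 and Unc5b. Lrrc4, a postsynaptic leucine-rich protein that binds netrin-G2, went from 8.56, 8.34 and 8.59 to 7.91, 7.66 and 7.67, a log2 change of -0.75 ± 0.10 (SE) with adjusted p = 0.00697 (limma). Sdk1 and Sdk2, the sidekick adhesion proteins of matched synaptic layers, changed by -0.39 ± 0.07 (SE) and -0.39 ± 0.08 (SE), and Unc5b, a netrin and Flrt receptor, by -0.37 ± 0.08 (SE). Lrrc4 passed without any 1 array, Sdk1 and Sdk2 passed only without control replicate 2 (adjusted p up to 0.111), and Unc5b, at adjusted p = 0.0487, passed in none of the 6 fits (up to 0.190).

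None of the postsynaptic scaffold genes on the list was called. Dlg4, which encodes the scaffold protein PSD-95, had a log2 change of 0.17 ± 0.06 (SE, adjusted p = 0.282), and the changes of Shank1, Shank2 and Shank3 were 0.06, -0.05 and 0.06. The general neural adhesion genes Ncam1 and L1cam had changes of 0.12 ± 0.07 (SE) and -0.02, with adjusted p of at least 0.504. The latrophilin gene Adgrl2, a receptor of Flrt proteins and teneurins, had -0.29 ± 0.07 (SE) with adjusted p = 0.0600.

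**Figure D4:**
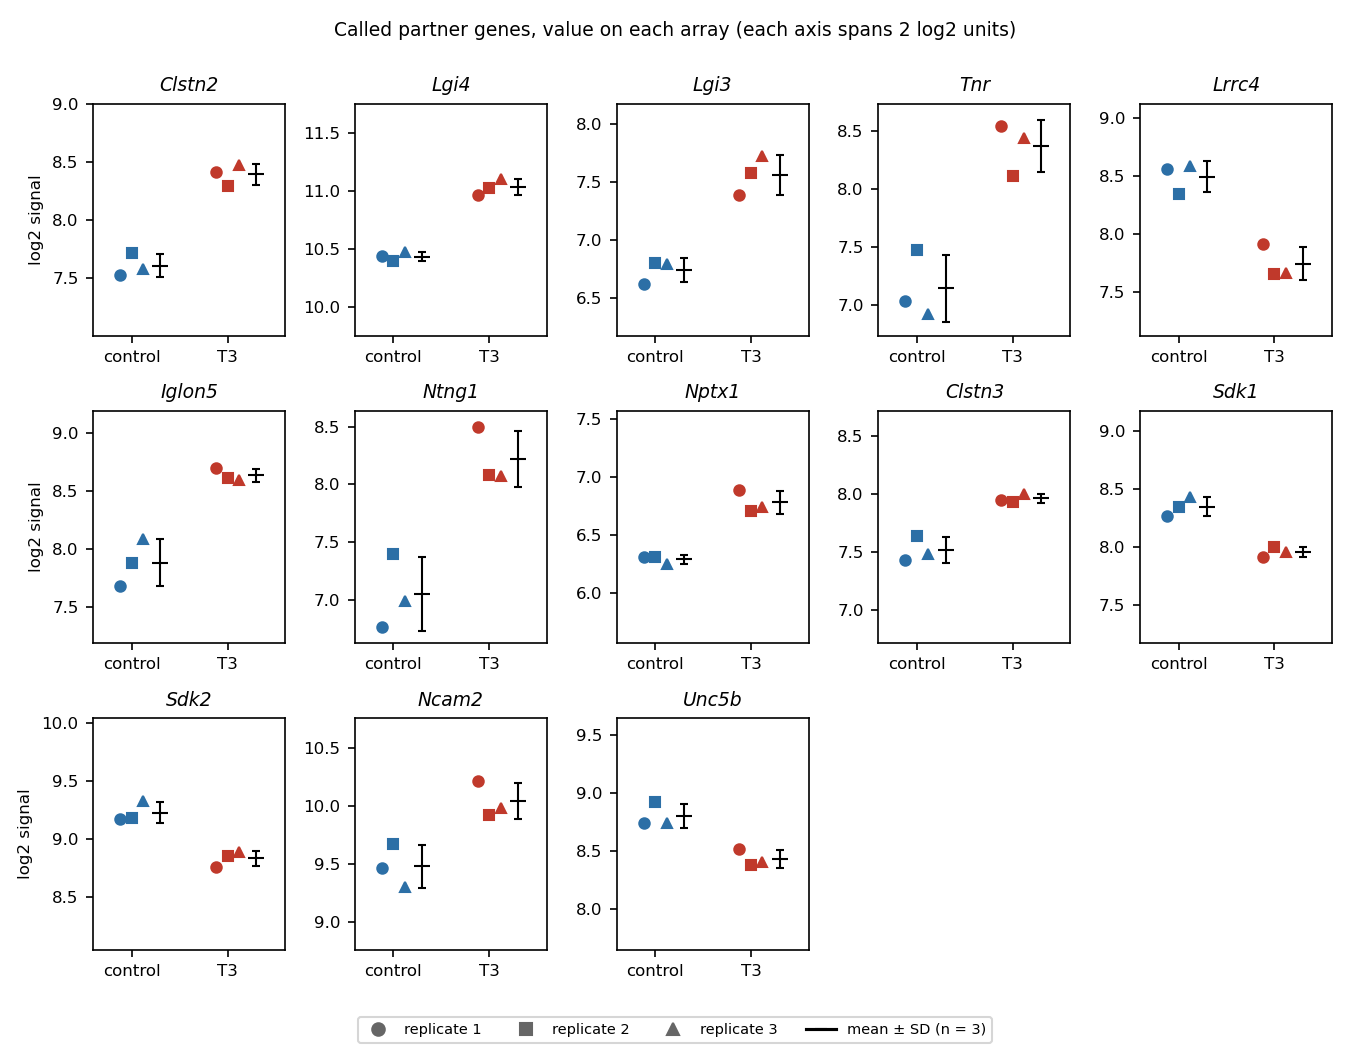
Log2 signal on each array for the 13 called genes of the partner list, drawn as for the called members, with every vertical axis spanning 2 log2 units. The groups do not overlap for any of the 13 genes, which were picked by a test on these same values. Groups do not overlap for 43 of the 77 genes of the whole partner list (55.8%), against 19.5% of all genes. That list was chosen with earlier results of these data known. The controls of Tnr and Ntng1 are the most widely spread.

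**Figure D5:**
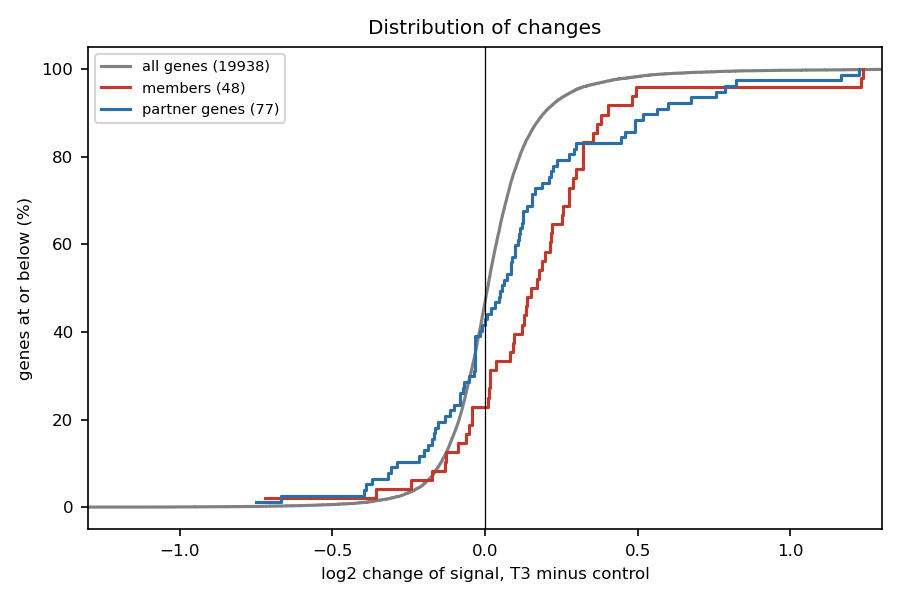
Cumulative share of genes (vertical axis, percent) by log2 change, T3 minus control (horizontal axis), for all 19938 genes, the 48 members and the 77 partner genes. The members' curve lies to the right of that of all genes over most of its length, with medians of 0.16 and 0.01, while that of the partner genes, with a median of 0.06, is wider on both sides.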

How the data were processed

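The 6 arrays were grouped and numbered from the sample labels. The authors deposited normalized log2 expression values per probe set, made with RMA and Partek version 6.5 per the submitters' processing notes; their settings, and a genome build, were not given in the sources used here. RMA as usually run equalises the arrays' distributions, which removes a change common to most genes. Of 35556 probe sets, the platform annotation gave 1 symbol to 21789, several to 1621 and none to 12146. Change was T3 minus control. The test was that of limma (version 3.58.1, R 4.3.3; lmFit, then eBayes, no filter), two-sided, with Benjamini-Hochberg adjustment over 19938 genes. SE are those of the limma change. Data were simulated with 200 changed genes in each of 10 runs over these genes. Changes of 0.5 and 1 (log2) were recovered in 82.3% and 99.5% of cases, and the false share was 5.50% for both sizes. The threshold of recovery is not given here, so these shares cannot be read as those of calls at an adjusted p under 0.05. The number of arrays limits the precision, and the labels do not say whether the samples of a group were separate cultures, so p-values rest on the spread among these arrays, which may be technical.

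Members and lists were chosen with earlier results of these data known. Named were every called member, those with an unadjusted p under 0.05, the other members with their family, and the 10 called partner genes of smallest p. Sdk2, Ncam2, Unc5b, the scaffold and general adhesion genes, Adgrl2 and the genes enclosing members were chosen after their values were seen. Alternatives tried were a replicate block, renewed quantile normalization, centring, filters on dim genes, probe set means, trend and robust fitting, another threshold and leaving out each array.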

Additional observations from a re-analysis of the deposited data

How the results depend on the processing

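The number of members called higher, 3, became 6 without the dimmest 50% of genes, a fit without Lrrtm1, which falls under that filter, 6 with trend and robust fitting and 8 at an adjusted p under 0.10; leaving out each array gave 2 to 9. Calls over all genes, 3.10%, were 7.47%, 4.39% and 4.82% in those 3 settings and 0.958% to 3.21% without 1 array. The number called lower, 1, was 0 to 1 when each array was left out. The partner genes called lower, 4, were 1 to 3 when each array was left out, and those called higher, 9, were 6 to 12. With the replicate number as a block, 2 members were called higher (Cntnap2 was lost, adjusted p = 0.0559) and 1 lower, and 8 partner genes higher and 2 lower, with 2.37% of all genes called. Ncam2, Sdk1, Sdk2 and Unc5b lost their calls (adjusted p = 0.0545, 0.0533, 0.0502 and 0.0996), Lrrc4 kept its own, and Nptx2 was gained as lower (0.0277). Per the labels, 50% of the dishes received T3; arrays of one number may thus share a preparation, which is not stated. The correlation of deviations between arrays of the same number was 0.18, 0.02 and 0.0002, and between arrays of unlike number it ran from -0.18 to 0.11. The numbers were not taken as pairs. Among the 23 members with an unadjusted p under 0.05, no setting turned a direction. These members were picked by p on the same arrays, which made a turned direction unlikely, so their directions were not tested by this. In 315 of their alternative settings the call was as reported, in 7 it was lost and in 17 it was gained. Most of the 315 are of members not called in the main fit. The losses were of Cntnap2 and Ntm, and some gains came only from the threshold of 0.10. Of the members outside these 23, Lrrn2, Lrrtm3, Nrxn3, Cntnap3, Cntnap5c, Negr1 and Lrfn1, all with changes near 0, turned sign under 1 to 6 settings. Without detection calls, whether the 18 members below the median gene were above background is unknown.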
